A study of Rattus norvegicus with 44 samples.

Results

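The livers of rats given 300 mg/kg of crude MCHM were set against those of rats given 500 mg/kg, the 2 highest doses of a 7-dose study. Each group holds 4 arrays, so the comparison rests on 8 of the 44 arrays in the series, chosen by organ and dose as labelled, and it was made over all 31042 probe sets other than controls. MCHM is 4-methylcyclohexanemethanol, the main component of an oily liquid used in washing coal, and "crude" is the commercial mixture. All animals were male Harlan Sprague Dawley rats, aged 6 to 8 weeks when groups were drawn, and all were dosed by stomach tube for 5 days running in corn oil at 5 mL/kg and killed 1 day later. The groups used were liver at 300 mg/kg (4 arrays), liver at 500 mg/kg (4), liver given corn oil alone, called vehicle (4), and the kidney groups at 300 and 500 mg/kg (3 each). The other liver doses, with 3 or 4 arrays each, entered the fit to estimate the spread. The labels call the arrays of a group biological replicates. The samples are whole tissue, so fewer cells of a type and less RNA per cell cannot be told apart.

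Several regulators that a liver dosed with a foreign compound can engage have well-known target genes. PPARA, a receptor for fatty acids, drives the enzymes that break fatty acids down in peroxisomes and mitochondria, and rodents respond to its activators strongly. ATF4 drives amino acid synthesis, amino acid import and tRNA charging when amino acids run short or protein synthesis is stressed. SREBP1c, the main product of *Srebf1* in liver, drives fatty acid synthesis after feeding, and CAR and PXR drive the cytochrome P450 enzymes that clear drugs.

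Values are log2 expression levels of probe sets, and every difference is the mean at 300 mg/kg minus the mean at 500 mg/kg on that scale, so that a positive one means higher at 300 mg/kg. Levels of different genes are not comparable, since each probe set has its own brightness. The 8 arrays correlated with each other at r = 0.991 to 0.993 across probe sets, whether within or between the doses, and their medians lay between 5.28 and 5.33. The median half-width of the 95% confidence interval of a difference was 0.24 over the 14217 named genes, with 4 arrays a group. These intervals are not adjusted for the number of tests. Differences well above 0.24 could thus also miss the adjusted threshold. Hepatocyte markers were at 12.97 or above on average in every one of the 8 arrays. *Xist*, an RNA made from an inactive X chromosome, read 8.25 in liver vehicle replicate 2, against 2.79 to 3.27 in the other liver arrays, which goes against the label "male" for that array. The contrast of 300 with 500 mg/kg takes no mean from the vehicle group. Genes called against vehicle are given with and without that array, and vehicle means are over all 4 arrays.

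The livers at 300 and 500 mg/kg differed past the threshold in 2 genes, both lower at 300 mg/kg and both enzymes of fatty acid metabolism. *Eci1*, a mitochondrial isomerase that lets unsaturated fatty acids enter beta-oxidation, fell 1.63-fold, and *Acot2*, a mitochondrial thioesterase that frees fatty acids from coenzyme A, fell 1.5-fold at 300 mg/kg relative to 500 mg/kg. In limma these 2 probe sets, 0 higher and 2 lower at 300 mg/kg, were the ones with an adjusted p under 0.05 among 31042, a share of 0.00644%. At an unadjusted p under 0.05 there were 2456 probe sets, or 7.91% of those tested, of which 1210 (3.9%) were higher and 1246 (4.01%) lower at 300 mg/kg. The 4 arrays of the one dose lay wholly beyond the 4 of the other for 1545 probe sets (4.98%), 778 (2.51%) of them higher and 767 (2.47%) lower at 300 mg/kg. The number of called probe sets was 0 in 5 of the 8 fits that left out 1 of the 8 arrays: without replicate 3 or 4 at 300 mg/kg, and without replicate 2, 3 or 4 at 500 mg/kg. It was also 0 with each array centred on its median, where the smallest adjusted p was 0.0533, and with the spread taken from the 8 arrays alone, where it was 0.0638. With 1 array left out, *Eci1* passed in 2 of the 8 fits and *Acot2* in 1. Without replicate 1 at 500 mg/kg the only call was another gene, *Ugt2b34l1*.

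**Figure D1:**
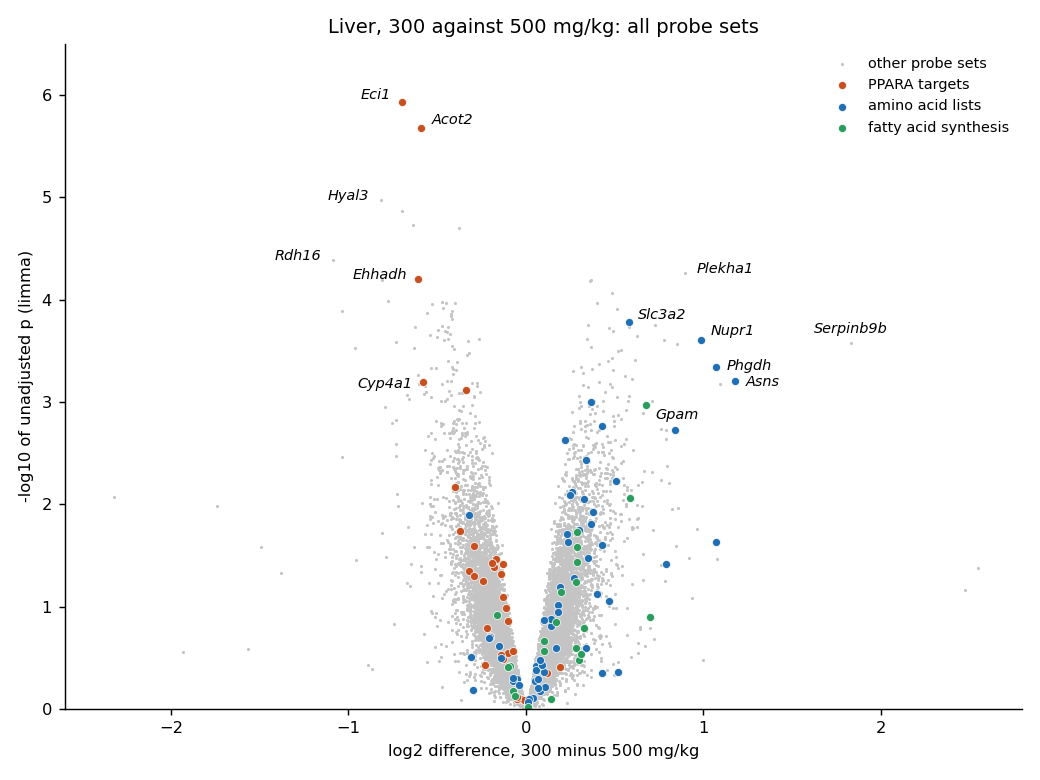
Each point is 1 of 31042 probe sets, with the liver log2 difference (300 minus 500 mg/kg) on the horizontal axis and minus log10 of the unadjusted limma p on the vertical axis, and colours mark the members of 3 kinds of gene list. The PPARA targets *Eci1* and *Acot2* are the highest points, at differences of -0.70 and -0.59, and the amino acid genes in blue lie mostly on the right, where 50 of 61 are above 0.

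*Eci1* read 11.34, 11.33, 11.15 and 11.12 in the 4 livers at 300 mg/kg, against 11.92, 12.05, 11.86 and 11.92 at 500 mg/kg. The groups did not overlap, and the range within each was smaller than the gap between them. The difference was -0.70 (SE 0.11, 95% interval -0.93 to -0.47, limma adjusted p = 0.0323). At vehicle the mean was 11.07 ± 0.20 (SD, n = 4), so the livers at 300 mg/kg lay near the vehicle livers (0.17 higher, adjusted p = 0.663), whereas those at 500 mg/kg were 0.87 higher (adjusted p = 3.14e-04, and 0.00297 without vehicle replicate 2). A second, dim probe set of *Eci1* averaged 3.75 at 300 mg/kg and 3.61 at 500 mg/kg, a difference of 0.14 in the opposite direction with an unadjusted limma p of 0.274.

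*Acot2* read 8.61, 8.73, 8.37 and 8.57 at 300 mg/kg, against 9.17, 9.04, 9.34 and 9.07 at 500 mg/kg, again with no overlap. The difference was -0.59 (SE 0.10, 95% interval -0.79 to -0.39, limma adjusted p = 0.0323). Vehicle livers averaged 8.81 ± 0.20, between the 2 doses, and neither dose passed the threshold against them (-0.24 at 300 mg/kg, adjusted p = 0.381, and 0.35 at 500 mg/kg, adjusted p = 0.179). The other 2 probe sets of *Acot2* gave differences of -0.64 and -0.57. *Acot1*, a near-identical gene for a cytosolic thioesterase whose transcripts could bind the same probes, had its own probe set at a dim 3.41 at 300 mg/kg and 3.61 at 500 mg/kg.

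The start regions of these 2 genes are shown because they are the ones called. They were searched on both strands for AGGTCA, the half-site that PPARA and many other nuclear receptors bind, and matches stand in capitals. The sequences are RefSeq promoters of rat assembly GRCr8, 250 bases before to 50 after the annotated start, in the gene's own direction: *Eci1* at chr10:13961000-13961299 and *Acot2* at chr6:109342590-109342889, both on the plus strand.
Eci1: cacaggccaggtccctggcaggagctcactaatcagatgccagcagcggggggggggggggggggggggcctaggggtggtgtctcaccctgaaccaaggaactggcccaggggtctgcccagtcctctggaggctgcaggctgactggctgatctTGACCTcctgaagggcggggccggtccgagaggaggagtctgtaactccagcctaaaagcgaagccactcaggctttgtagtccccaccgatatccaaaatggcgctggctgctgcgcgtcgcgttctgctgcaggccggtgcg
Acot2: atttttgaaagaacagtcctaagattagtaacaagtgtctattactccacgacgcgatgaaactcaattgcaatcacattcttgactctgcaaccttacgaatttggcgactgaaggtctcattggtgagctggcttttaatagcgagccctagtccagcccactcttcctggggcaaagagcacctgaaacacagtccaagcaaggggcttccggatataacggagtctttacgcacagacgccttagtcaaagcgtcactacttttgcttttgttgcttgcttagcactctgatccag
*Eci1* holds 1 match in reverse (TGACCT), beginning 94 bases before the start, and *Acot2* holds 0. The half-site is in 16.2% of all 33469 promoters of this length. Counted by gene, it is in 16.9% of all genes with a promoter and in 9 of the 30 PPARA targets with a promoter in the table (30%). A match is a description of the letters and not a site of binding, and 0 matches says only that these letters are not in this window.

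Around these 2 genes, PPARA targets were lower at 300 mg/kg than at 500 mg/kg as a list: 31 of 35 measured members had a negative difference and 4 a positive one, with a median of -0.17, against a median of -0.01 over all probe sets. At an unadjusted p under 0.05 there were 15 lower and 0 higher, or 42.9% of the list against 7.91% of all probe sets. For 8 members, or 22.9% against 4.98% of all probe sets, the doses did not overlap, and each of the 8 was lower at 300 mg/kg. Members were read from the brightest probe set of each gene, and over all 14217 genes read in that way the shares were 8.79% and 6.12%. Only *Eci1* and *Acot2* of the list passed the adjusted threshold in limma. Leaving out replicate 4 at 300 mg/kg moved the median to -0.11. Members of a list that share a regulator are not independent of each other, and the list was chosen with earlier results of these data known.

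The peroxisomal enzymes of this list came next. *Ehhadh*, the bifunctional enzyme of peroxisomal beta-oxidation, read 10.96, 11.17, 11.00 and 10.81 at 300 mg/kg, against 11.55, 11.51, 11.52 and 11.81 at 500 mg/kg. The groups did not overlap, and the difference of -0.61 (SE 0.13) had a limma adjusted p of 0.157. *Decr2*, a peroxisomal dienoyl-CoA reductase, read 10.34, 10.40, 10.37 and 10.30 at 300 mg/kg, against 10.73, 10.59, 10.73 and 10.72 at 500 mg/kg, also with no overlap, a difference of -0.34. *Crat*, the acetyltransferase that exports acetyl groups as acetylcarnitine, was between 7.61 and 7.86 at 300 mg/kg and between 7.91 and 8.51 at 500 mg/kg.

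Among the microsomal and mitochondrial members, *Cyp4a1*, the omega-hydroxylase that is a classic PPARA marker in rat liver, read 11.07, 11.58, 10.88 and 10.91 at 300 mg/kg, against 11.66, 11.70, 11.64 and 11.75 at 500 mg/kg. One liver at 300 mg/kg came close to the livers at 500 mg/kg, and the difference was -0.58 (SE 0.15, limma adjusted p = 0.22). The trifunctional protein subunit *Hadha* (-0.18), the medium-chain dehydrogenase *Acadm* (-0.13) and the very-long-chain dehydrogenase *Acadvl* (-0.14) differed in the same direction by less. *Cpt1a*, the gatekeeper of fatty acid entry into mitochondria, gave 0.01, *Angptl4* -0.05, *Plin2* 0.12 and *Pdk4* -0.23, with overlapping groups. Against vehicle, 0 members passed at 300 mg/kg and 4 at 500 mg/kg (*Eci1*, *Ehhadh*, *Cyp4a1* and *Decr2*), where 0.122% and 0.177% of all probe sets did. Without vehicle replicate 2 only *Eci1* of the 4 still passed at 500 mg/kg, and the limma adjusted p was 0.0597 for *Ehhadh*, 0.0926 for *Cyp4a1* and 0.14 for *Decr2*.

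**Figure D2:**
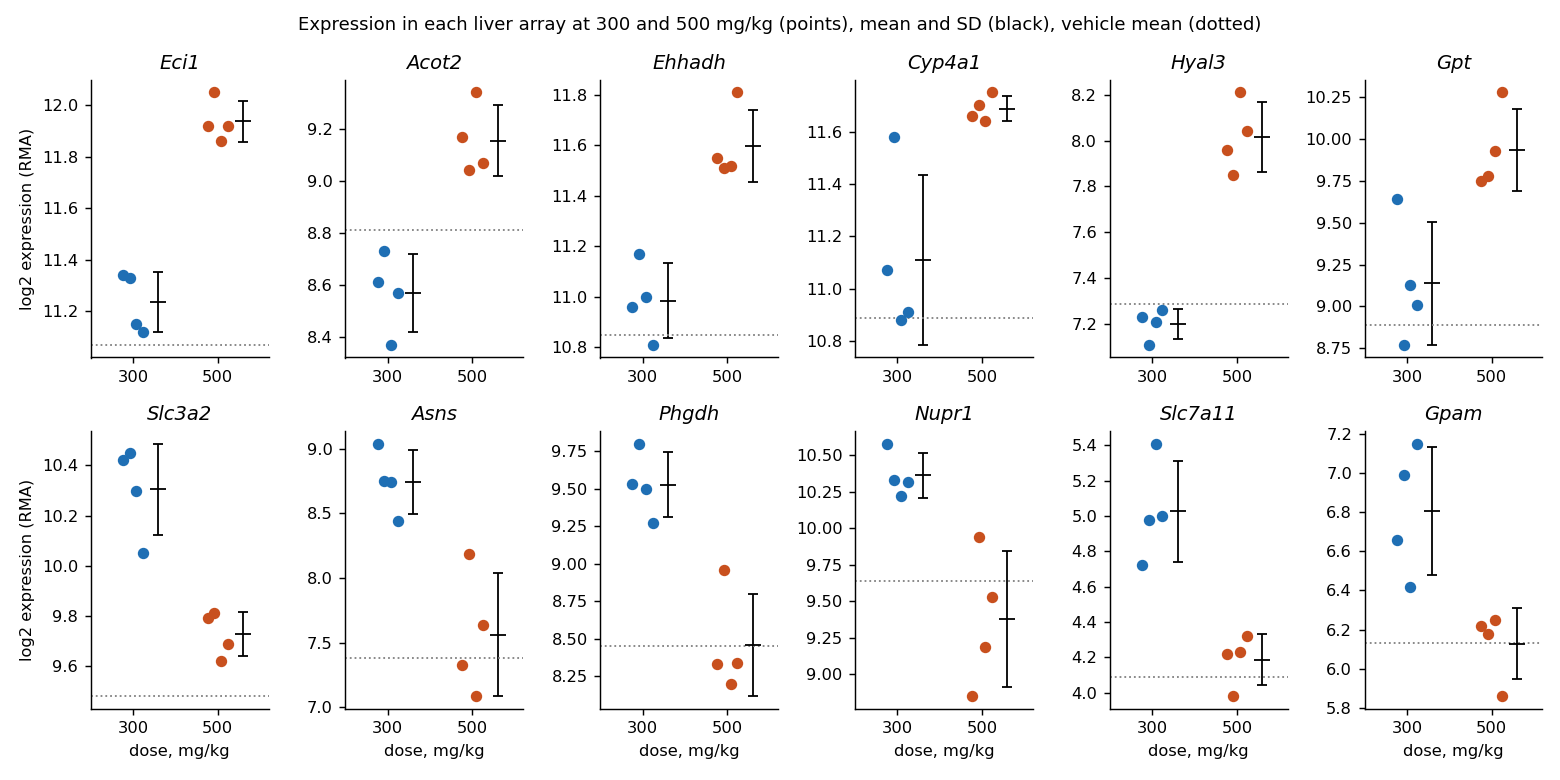
Log2 expression of 12 genes in each liver array at 300 mg/kg (blue) and 500 mg/kg (orange), with the mean and SD of the 4 arrays in black and the vehicle mean as a dotted line; each panel has its own vertical range, which does not start at 0. The genes were picked by values at these 2 doses or with earlier results of these data known. That the doses do not overlap in any of the 12 panels is thus partly fixed by that choice. Of all probe sets, 4.98% had no overlap. *Eci1* lies between 11.12 and 11.34 at 300 mg/kg and between 11.86 and 12.05 at 500 mg/kg. *Asns* lies between 8.44 and 9.04 at 300 mg/kg and between 7.09 and 8.19 at 500 mg/kg.

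Genes that make, import and load amino acids stood on the other side, with higher levels at 300 mg/kg, although none of them passed the adjusted threshold. Of 61 measured genes in the 3 amino acid lists together, 50 were higher and 11 lower at 300 mg/kg, with a median of 0.18. At an unadjusted p under 0.05 there were 22 higher and 1 lower, the alanine transaminase *Gpt2*, together 37.7% against 7.91% of all probe sets. For 14 of the 61 the groups did not overlap, all 14 higher at 300 mg/kg, or 23% against 4.98% of all probe sets. Here too the members share regulators and the lists were chosen with earlier results known.

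Among the biosynthetic enzymes, *Asns*, which makes asparagine, read 9.04, 8.75, 8.74 and 8.44 at 300 mg/kg, against 7.33, 8.19, 7.09 and 7.64 at 500 mg/kg. That is 2.27-fold on average with no overlap, a difference of 1.18 (SE 0.30, 95% interval 0.56 to 1.80, limma adjusted p = 0.22). *Phgdh*, the first enzyme of serine synthesis, read 9.53, 9.80, 9.50 and 9.27 at 300 mg/kg, against 8.33, 8.96, 8.20 and 8.34 at 500 mg/kg. These groups did not overlap either, and the difference of 1.07 had an adjusted p of 0.196. *Psat1*, the next enzyme of that pathway, was between 8.47 and 9.37 at 300 mg/kg and between 7.40 and 8.83 at 500 mg/kg, so its groups overlapped (difference 0.79).

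The regulators of the amino acid response were divided. *Nupr1*, a small stress-induced nuclear protein, read 10.58, 10.33, 10.22 and 10.32 at 300 mg/kg, against 8.85, 9.94, 9.19 and 9.53 at 500 mg/kg. The difference was 0.99 (SE 0.23, limma adjusted p = 0.157), and the groups did not overlap, with an SD of 0.16 at 300 mg/kg and 0.47 at 500 mg/kg. The pseudokinase *Trib3* gave 1.07 with overlapping groups, and the transcription factor *Atf5* gave 0.38 without overlap. *Atf4* itself gave 0.04 and *Ddit3* 0.01, and the secreted factors *Fgf21* and *Gdf15* gave -0.30 and -0.31. *Fgf21*, which is also on the PPARA list, was spread from 7.09 to 10.05 within the 300 mg/kg group alone.

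Of 16 amino acid transporters 12 were higher and 4 lower at 300 mg/kg, 5 and 0 at an unadjusted p under 0.05 (31.2% against 7.91% of all probe sets). *Slc3a2*, the shared heavy chain of several exchangers, read 10.42, 10.45, 10.30 and 10.05 at 300 mg/kg, against 9.79, 9.81, 9.62 and 9.69 at 500 mg/kg. With no overlap its difference was 0.58 (SE 0.13, limma adjusted p = 0.157). Its cystine-importing partner *Slc7a11*, on a dim probe set, was between 4.72 and 5.41 at 300 mg/kg and between 3.98 and 4.32 at 500 mg/kg (difference 0.84), and the cationic carrier *Slc7a1* was between 6.35 and 7.04 at 300 mg/kg and between 5.88 and 6.34 at 500 mg/kg (0.51). Neither pair of groups overlapped. Of the other 2 probe sets of *Slc7a1*, the brighter gave 0.86 with overlapping groups and the dimmer -0.02. The glutamine carrier *Slc1a5* gave -0.21.

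The synthetases load amino acids onto tRNA. Of 19 measured, 17 were higher at 300 mg/kg, and the median was 0.19. At an unadjusted p under 0.05 there were 9 higher and 0 lower, or 47.4% against 7.91% of all probe sets. *Lars1*, for leucine, read 9.74, 9.65, 9.51 and 9.49 at 300 mg/kg, against 9.12, 9.45, 9.10 and 9.23 at 500 mg/kg, a difference of 0.37 with no overlap and an adjusted p of 0.247. *Gars1*, for glycine, read 10.56, 10.36, 10.40 and 10.33 at 300 mg/kg, against 10.03, 10.11, 9.96 and 10.20 at 500 mg/kg, also without overlap. *Cars1* gave 0.43, *Iars1* 0.33 and *Aars1* 0.22, while *Wars1* (-0.07) and *Farsa* (-0.05) were the 2 below 0. Against vehicle, 10 of the 61 amino acid genes passed at 300 mg/kg, where 0.122% of all probe sets did, and 0 passed at 500 mg/kg. The 10 were 6 synthetases, the transporters *Slc3a2*, *Slc7a1* and *Slc6a9*, and *Eif4ebp1*, a repressor of translation. Without vehicle replicate 2, 0 of these 10 passed, with limma adjusted p of 0.0695 for *Slc3a2*, 0.0862 for *Iars1*, *Yars1* and *Slc6a9*, and 0.12 to 0.171 for the other 6.

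TGATGNAA, the core of the response element that C/EBP and ATF proteins share, was searched on both strands and is set in capitals. Start regions are shown for 3 genes that hold it, 1 from each of these lists, so a match in each is no result. They lie at chr1:190645852-190646151 on the minus strand (*Nupr1*), chr17:15193603-15193902 on the minus strand (*Iars1*) and chr12:11664238-11664537 on the plus strand (*Slc7a1*) of GRCr8, with the same limits as above.
Nupr1: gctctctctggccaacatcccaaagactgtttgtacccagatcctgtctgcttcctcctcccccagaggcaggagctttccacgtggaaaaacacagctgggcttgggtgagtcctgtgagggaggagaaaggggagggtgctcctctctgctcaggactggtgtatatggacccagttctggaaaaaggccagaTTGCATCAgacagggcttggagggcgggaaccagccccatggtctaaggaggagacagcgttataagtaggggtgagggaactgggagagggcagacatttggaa
Iars1: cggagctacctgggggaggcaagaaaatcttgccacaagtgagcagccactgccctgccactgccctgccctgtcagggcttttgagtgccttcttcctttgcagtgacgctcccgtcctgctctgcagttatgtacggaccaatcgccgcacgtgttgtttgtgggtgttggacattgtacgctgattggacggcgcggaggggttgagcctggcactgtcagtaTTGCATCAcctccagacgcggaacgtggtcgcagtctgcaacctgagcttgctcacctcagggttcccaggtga
Slc7a1: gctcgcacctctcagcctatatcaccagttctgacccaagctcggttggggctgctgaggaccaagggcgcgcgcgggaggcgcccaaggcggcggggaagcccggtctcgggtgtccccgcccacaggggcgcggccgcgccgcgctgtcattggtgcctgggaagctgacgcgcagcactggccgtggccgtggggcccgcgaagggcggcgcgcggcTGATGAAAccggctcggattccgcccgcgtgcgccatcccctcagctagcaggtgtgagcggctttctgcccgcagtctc
Each holds 1 match, beginning 55, 24 and 30 bases before the start in *Nupr1*, *Iars1* and *Slc7a1*; the first 2 are in reverse (TTGCATCA) and the last is forward (TGATGAAA). The letters are in 3.98% of all promoters and, counted by gene, in 4.16% of all genes with a promoter. Of 53 genes of the 3 lists with a promoter in the table, 14 hold them: 7 of 17 synthetases, 4 of 23 genes of the ATF4 list and 3 of 13 transporters. *Asns*, *Phgdh* and *Slc3a2* have 0 matches in this window. These are descriptions of letters and not sites. The 2 motifs overlap each other in 1 promoter of the whole table.

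Fatty acid synthesis ran the same way as the amino acid genes. Of 22 members 17 were higher and 5 lower at 300 mg/kg, with 5 higher and 0 lower at an unadjusted p under 0.05 (22.7% against 7.91% of all probe sets) and a median of 0.24. Only 1 member, *Gpam*, separated the doses without overlap, or 4.55% of the list against 4.98% of all probe sets. The median was 0.10 without replicate 2 at 500 mg/kg and 0.13 without replicate 4 at 300 mg/kg. *Gpam*, the first enzyme of glycerolipid synthesis, read 6.66, 6.99, 6.42 and 7.15 at 300 mg/kg, against 6.22, 6.18, 6.25 and 5.86 at 500 mg/kg (difference 0.68, SE 0.18, limma adjusted p = 0.253). *Srebf1* read 11.17, 10.90, 11.15 and 11.14 at 300 mg/kg, against 10.41, 10.10, 10.52 and 11.00 at 500 mg/kg, where 1 liver at 500 mg/kg reached the 300 mg/kg range (difference 0.59, adjusted p = 0.46). The desaturase *Scd* gave 0.70, the carboxylase *Acaca* 0.29 and the fatty acid synthase *Fasn* 0.33, which was 0.10 without replicate 2 at 500 mg/kg and 0.15 without replicate 4 at 300 mg/kg. *Thrsp*, a lipogenic regulator, gave 0.01 with a 95% interval of -0.53 to 0.55, which takes in differences of either sign up to about that size. Against vehicle, 0 of the 22 passed at either dose, where 0.122% of all probe sets did at 300 mg/kg and 0.177% at 500 mg/kg. The medians of the list were 0.54 higher at 300 mg/kg and 0.26 higher at 500 mg/kg (0.55 and 0.25 without vehicle replicate 2).

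Cholesterol synthesis was split evenly between the doses, with 10 members higher and 12 lower at 300 mg/kg. The median was -0.01 (0.07 without replicate 1 at 300 mg/kg). At an unadjusted p under 0.05 there were 0 of 22, or 0% against 7.91% of all probe sets. *Tm7sf2*, a sterol reductase of this pathway, read 10.96, 11.20, 11.06 and 11.03 at 300 mg/kg, against 11.05, 11.12, 11.13 and 10.84 at 500 mg/kg, with a difference of 0.03 (95% interval -0.19 to 0.25). It was higher than vehicle at both doses, by 0.54 at 300 mg/kg (adjusted p = 0.0328) and 0.51 at 500 mg/kg (0.0364), and neither p held without vehicle replicate 2 (0.131 and 0.104).

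Genes that break amino acids down were lower at 300 mg/kg in 22 of 31 cases, with a median of -0.09. At an unadjusted p under 0.05 there were 9 lower and 1 higher, or 32.3% against 7.91% of all probe sets. *Gpt*, the cytosolic alanine transaminase, read 9.64, 8.77, 9.13 and 9.01 at 300 mg/kg, against 9.75, 9.78, 9.93 and 10.28 at 500 mg/kg (difference -0.80, SE 0.22, limma adjusted p = 0.254). One liver at 300 mg/kg stopped just short of the lowest at 500 mg/kg. Proline dehydrogenase *Prodh* gave -0.50 (adjusted p = 0.157), though its other probe set had the opposite sign, and urocanase *Uroc1* of histidine breakdown gave -0.32 (0.17), both without overlap. The urea cycle was mixed: *Cps1* gave -0.02, *Ass1* -0.21, *Asl* 0.22 and *Arg1* -0.04.

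Drug-clearing genes were divided. Of 21 CAR and PXR targets 8 were higher and 13 lower at 300 mg/kg, with 6 lower and 0 higher at an unadjusted p under 0.05 (28.6% against 7.91% of all probe sets). *Cyp3a9*, a P450 enzyme that oxidises steroids and drugs, read 8.98, 8.04, 8.52 and 8.59 at 300 mg/kg, against 9.83, 9.26, 9.62 and 9.56 at 500 mg/kg, a difference of -1.04 (SE 0.32, adjusted p = 0.366). *Cyp3a18* gave -0.35, *Cyp3a23-3a1* -0.32 and the carboxylesterase *Ces2c* -0.54, each without overlap, while *Cyp3a2* gave -0.04 and *Ugt2b1* -0.19. Cyp3a members resemble each other, so their probes may share signal. The 8 aryl hydrocarbon receptor targets divided into 4 higher and 4 lower.

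NRF2 targets, the antioxidant genes, were lower at 300 mg/kg in 20 of 30 cases, with 5 lower and 2 higher at an unadjusted p under 0.05 (23.3% against 7.91% of all probe sets). The 2 higher were *Slc7a11* and *Srxn1*, a sulfiredoxin that repairs oxidised peroxiredoxins, which read 8.66, 8.27, 8.46 and 8.34 at 300 mg/kg, against 8.01, 7.90, 8.13 and 8.10 at 500 mg/kg (difference 0.40, limma adjusted p = 0.253). The glutathione transferase *Gstm2* went the other way, at 11.16, 10.86, 10.98 and 11.01 at 300 mg/kg, against 11.36, 11.44, 11.39 and 11.45 at 500 mg/kg (difference -0.41, adjusted p = 0.308). Carboxylesterases were lower at 300 mg/kg in 11 of 15 cases and alcohol and aldehyde oxidation genes in 14 of 16, with medians of -0.10 and -0.08 (-0.05 for carboxylesterases without replicate 1 at 300 mg/kg, and -0.05 for the oxidation genes without replicate 4 at 300 mg/kg).

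Lists of general cell function differed by small amounts in the same direction across many members. Ribosomal protein genes were higher at 300 mg/kg in 19 of 20 cases with a median of 0.09, and oxidative phosphorylation genes were lower in 25 of 28 cases with a median of -0.04. Proteasome subunits were lower in 24 of 30 (median -0.04). These medians are smaller than the half-width of the 95% interval of any single named gene, which was 0.11 or more. That half-width does not measure the spread of a median over a list. Quantile normalization ties the arrays' distributions together, so a small common shift of bright genes depends on it. Endoplasmic reticulum stress genes (8 higher, 16 lower, median -0.06) and cell cycle genes (13 higher, 24 lower, median -0.07) had 0 and 1 members at an unadjusted p under 0.05. These are 0% and 2.7%, against 7.91% of all probe sets. With single arrays left out the cell cycle median changed sign, at 0.07 without replicate 1 at 300 mg/kg, that of endoplasmic reticulum stress reached 0.00 without replicate 4 at 500 mg/kg, and those of oxidative phosphorylation and the proteasome reached -0.02 without replicates 4 and 3 at 300 mg/kg. The 26 acute phase genes divided into 16 higher and 10 lower (median 0.01), and the inhibitor *A2m*, an acute phase gene in rat, read 9.57, 9.53, 9.11 and 9.31 at 300 mg/kg, against 8.17, 8.54, 8.72 and 8.87 at 500 mg/kg (difference 0.81, adjusted p = 0.415).

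**Figure D3:**
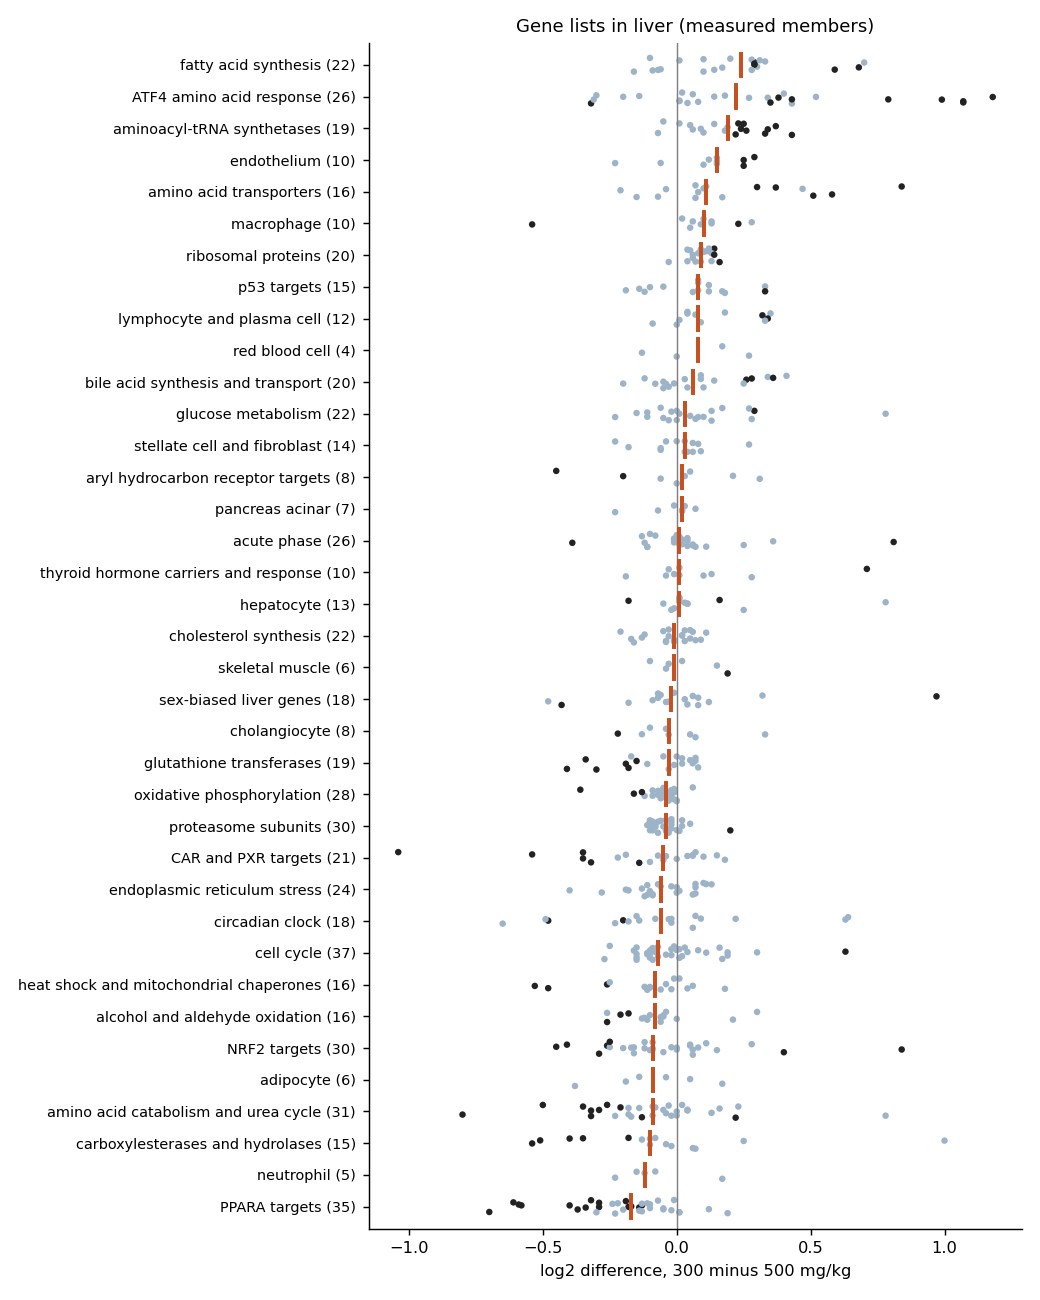
Each point is a measured member of a gene list, placed by its liver log2 difference (300 minus 500 mg/kg), with the number of members after the list's name; black points have an unadjusted limma p under 0.05 and orange bars are medians. The medians run from -0.17 for PPARA targets at the bottom to 0.24 for fatty acid synthesis at the top, which falls to 0.10, below the ATF4 list and the synthetases, without replicate 2 at 500 mg/kg.

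Markers of other liver cells were also higher at 300 mg/kg in part. Endothelial markers were higher in 8 of 10 cases (median 0.15, 3 at an unadjusted p under 0.05, which 7.91% of all probe sets reached), and their mean level per array was 7.87 to 8.15 at 300 mg/kg, against 7.87 to 7.94 at 500 mg/kg. Lymphocyte markers were higher in 10 of 12 (median 0.08, 2 at that p), with 5.27 to 5.49 at 300 mg/kg, against 5.24 to 5.28 at 500 mg/kg. Macrophage markers were higher in 9 of 10 (median 0.10, 1 higher and 1 lower at that p), with 8.62 to 9.08 at 300 mg/kg, against 8.72 to 8.83 at 500 mg/kg. The ranges overlapped in each list. The endothelial median was 0.09 without replicate 2 at 300 mg/kg, the lymphocyte median 0.04 without replicate 3 and 0.16 without replicate 2, and the macrophage median 0.04 without replicate 4 and 0.17 without replicate 3 at that dose. Of the macrophage genes *Cd14* gave -0.54 and *Cd68* 0.23. Stellate cell markers (median 0.03), cholangiocyte markers (-0.03) and hepatocyte markers (0.01) lay near 0, and the first 2 changed sign with single arrays left out. The part of these cell types in the amino acid and lipid differences was not tested.

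The leading genes were the 2 called ones and those with the smallest p among genes without overlap, to make 12 in each direction. They were drawn from named genes, each read from its brightest probe set. Unnamed probe sets, provisional gene names and dimmer probe sets of a gene could not enter. Of the higher ones 2, *Slc3a2* and *Nupr1*, belong to the lists above, and of the lower ones 4 do, *Eci1*, *Acot2*, *Ehhadh* and the hydrolase *Abhd1*. The other 10 higher and 8 lower genes are on no list. The 12 higher at 300 mg/kg had differences of 0.35 to 1.83 and adjusted p of 0.157 to 0.161. The largest belonged to *Serpinb9b*, a serine proteinase inhibitor, at 8.88, 8.86, 8.18 and 8.46 at 300 mg/kg against 7.05, 6.18, 7.02 and 6.81 at 500 mg/kg, 3.56-fold on average. *Plekha1*, a phosphoinositide-binding adaptor, read 8.72, 8.80, 8.65 and 8.42 at 300 mg/kg, against 7.74, 7.88, 7.50 and 7.88 at 500 mg/kg (difference 0.90). The cold-inducible RNA-binding protein *Rbm3* gave 0.73, the methylosome subunit *Wdr77* 0.37, the acyltransferase *Agpat3* 0.36 and the inositol phosphate kinase *Ippk* 0.35. *Agpat3* has 5 other probe sets, of which 3 had the same sign.

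The 12 lower at 300 mg/kg had differences of -0.38 to -1.09, and the 10 that did not pass had adjusted p of 0.102 to 0.157. *Hyal3*, of the hyaluronidase family, read 7.23, 7.11, 7.21 and 7.26 at 300 mg/kg, against 7.96, 7.85, 8.21 and 8.04 at 500 mg/kg. The difference was -0.82 (SE 0.15, limma adjusted p = 0.102). Its other probe set averaged 6.12 at 300 mg/kg and 6.35 at 500 mg/kg, a difference of -0.23 with overlapping groups. The retinol dehydrogenase *Rdh16* read 7.94, 7.57, 7.91 and 7.78 at 300 mg/kg, against 8.46, 8.55, 9.47 and 9.07 at 500 mg/kg (-1.09). *Acot13*, another acyl-CoA thioesterase, gave -0.42. *Tmem14c*, a mitochondrial protein of heme synthesis, was at 10.47, 10.35, 10.27 and 10.42 at 300 mg/kg, against 10.74, 10.79, 10.78 and 10.70 at 500 mg/kg (-0.38). The bradykinin receptor *Bdkrb2* (-0.70) and, among the higher genes, *Tmem174* (0.37) and *Tmbim7* (0.85) had levels under 5, where RMA values carry little signal.

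The levels at all 7 doses are given beside the gap. The genes were picked by the arrays at 300 and 500 mg/kg or with earlier results of these data known. A highest or lowest mean at 1 of these 2 doses is thus partly fixed by that choice. *Eci1* averaged between 11.07 and 11.53 at every dose up to 300 mg/kg and 11.94 at 500 mg/kg. *Gpt* averaged between 8.89 and 9.33 up to 300 mg/kg and 9.93 at 500 mg/kg. *Slc3a2* averaged 9.48 at vehicle, 9.95, 9.69, 9.94 and 10.08 at 0.1, 1, 10 and 100 mg/kg, 10.30 at 300 mg/kg and 9.73 at 500 mg/kg. The highest mean of *Slc3a2*, *Asns* and *Srebf1* was thus at 300 mg/kg, and *Wdr77* had as high a mean at 0.1 mg/kg (8.63) as at 300 mg/kg (8.62). *Serpina7*, which encodes thyroxine-binding globulin, averaged 10.14 at vehicle, 9.40 at 300 mg/kg and 8.68 at 500 mg/kg, below vehicle at both doses and past the threshold at 500 mg/kg (-1.46, adjusted p = 0.00569, and 0.0428 without vehicle replicate 2).

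**Figure D4:**
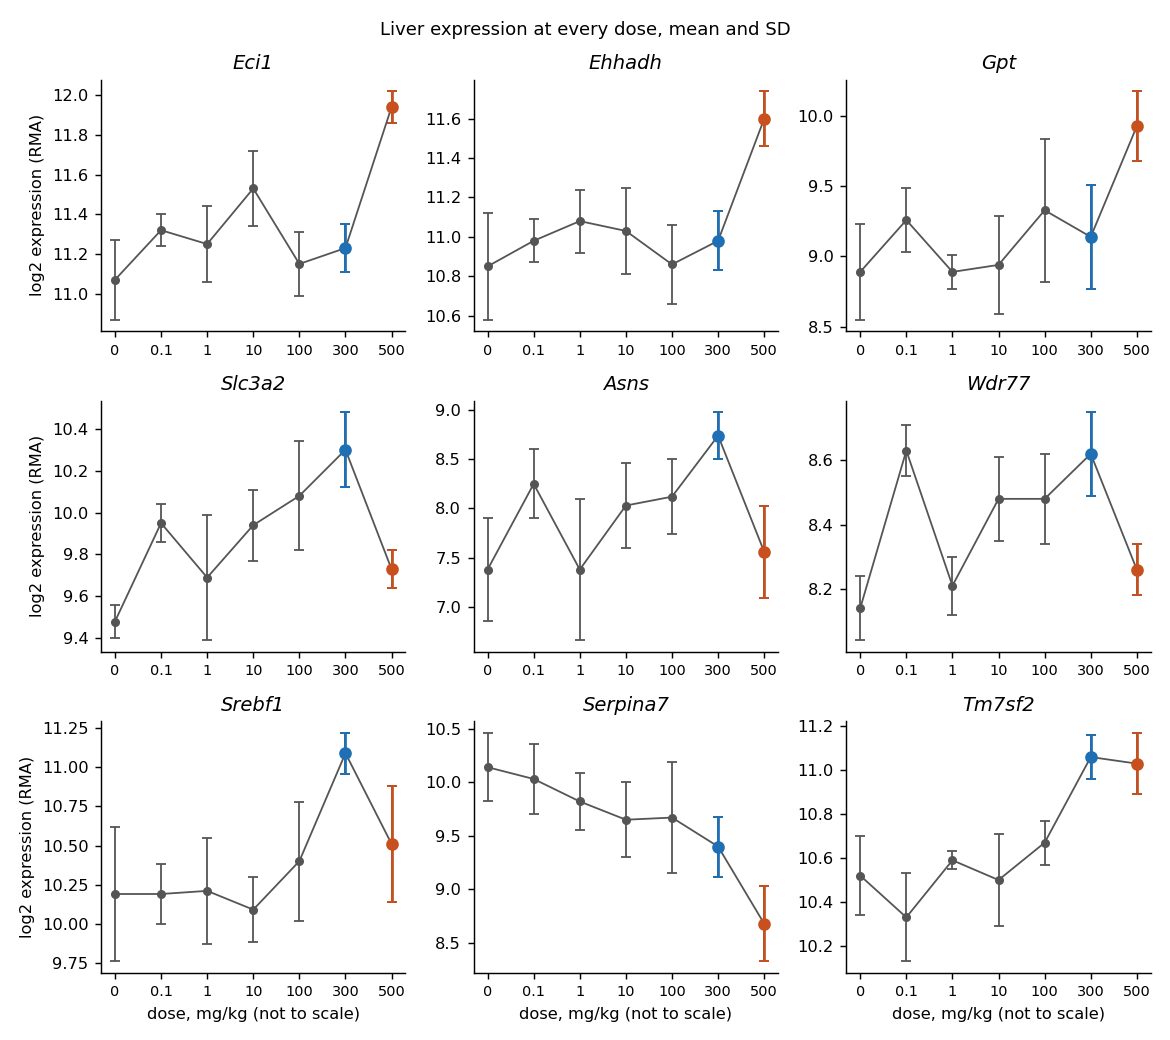
Mean log2 expression (vertical axis, own range per panel) with SD at the 7 liver doses in mg/kg, evenly spaced, for 9 genes; 300 mg/kg is blue and 500 mg/kg orange, and each point stands for 4 arrays except 0.1 mg/kg with 3. *Eci1*, *Ehhadh* and *Gpt* are highest at 500 mg/kg, *Slc3a2*, *Asns* and *Srebf1* at 300 mg/kg, *Serpina7* is lowest at 500 mg/kg, and *Tm7sf2* is level between the 2 doses at 11.06 and 11.03. The genes were picked by values at these 2 doses or with earlier results of these data known.

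Against vehicle, 38 probe sets passed at 300 mg/kg, 33 higher (0.106%) and 5 lower (0.0161%). At 500 mg/kg 55 passed, 37 higher (0.119%) and 18 lower (0.058%). The 2 comparisons share the vehicle arrays. Of the genes named by rule, 9 passed at 300 mg/kg and 21 at 500 mg/kg. Without vehicle replicate 2 all of them kept their direction, but 0 of the 9 and 8 of the 21 still passed, and the counts over all probe sets were 0 at 300 mg/kg and 14 at 500 mg/kg. The 8 were *Eci1*, *Abhd1*, *Fabp7*, *Blvrb*, *Serpina7*, *Hyal3*, *Tmem14c* and *Tmbim7*. *Otub2*, a deubiquitinase, shows the kind of gene that passed at 300 mg/kg with all arrays: it read 8.03, 8.04, 8.07 and 8.12 there, 7.32, 6.89, 7.46 and 7.97 at 500 mg/kg, and between 6.49 and 6.85 in vehicle livers. Its adjusted p at 300 mg/kg was 0.0094, and 0.0565 without that array. *Nim1k*, a kinase, averaged 5.40 at 300 mg/kg and 6.05 at 500 mg/kg, against 7.36 at vehicle.

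In kidney the same 2 doses gave 2 called probe sets (0.00644%), a different pair: *Ttpa*, the vitamin E transfer protein, was 1.10 higher at 300 mg/kg (adjusted p = 0.00555), and a probe set without a gene name was 1.34 lower. Whether liver and kidney differed in the gap between the doses was tested in limma as an interaction over all 44 arrays. There were 0 probe sets past the threshold, 2090 (6.73%) at an unadjusted p under 0.05, and the smallest adjusted p was 0.147, that of *Acot2*. Its level in kidney was 9.35, 9.51 and 9.34 at 300 mg/kg, against 9.32, 9.30 and 9.19 at 500 mg/kg, a difference of 0.13, against -0.59 in liver.

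Several genes had gaps of opposite sign in the 2 organs, none of which passed that test. *Nupr1* read 5.69, 6.22 and 5.72 in kidney at 300 mg/kg, against 6.83, 7.78 and 7.36 at 500 mg/kg, a difference of -1.45, whereas liver gave 0.99 (adjusted p of the organ difference 0.291). *Asns* gave -0.62 in kidney and *Atf5* -0.47. PPARA targets were divided into 17 higher and 18 lower at 300 mg/kg in kidney (median -0.03), synthetases into 8 and 11 (-0.04) and fatty acid synthesis genes into 5 and 17 (-0.07). Of the 24 leading liver genes, 6 of the 12 that were higher at 300 mg/kg in liver were also higher in kidney, and 7 of the 12 lower ones were also lower. The liver array and the kidney array of 1 animal may both be present, which the labels do not state.

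**Figure D5:**
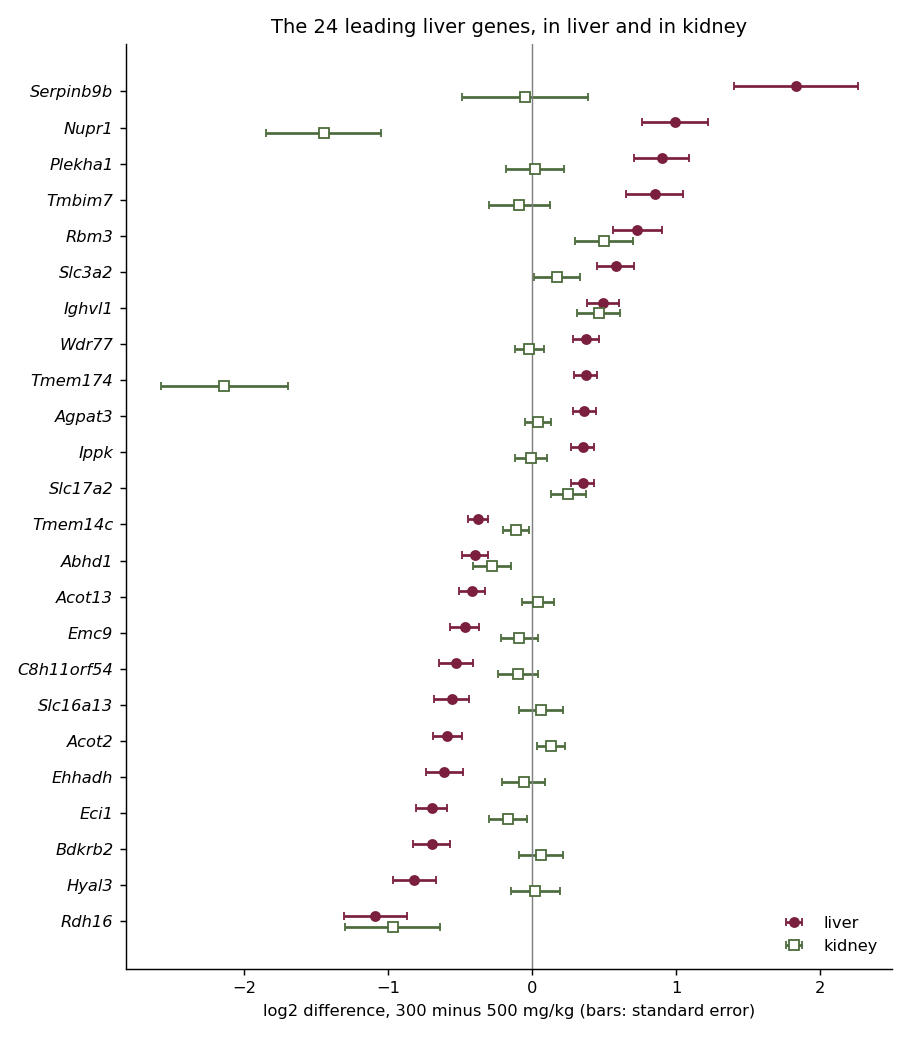
Log2 differences (300 minus 500 mg/kg, horizontal axis) with standard errors for the 24 leading liver genes, in liver (filled circles, 4 arrays a dose) and in kidney (open squares, 3 arrays a dose). The liver values were used to pick the genes. *Rdh16* lies near -1 in both organs (-1.09 and -0.97), and *Nupr1* lies at 0.99 in liver and -1.45 in kidney. *Tmem174*, dim in liver, lies at -2.14 in kidney. Its kidney arrays read 11.25, 8.22 and 8.48 at 300 mg/kg, against 11.32, 11.41 and 11.65 at 500 mg/kg. Replicate 1 at 300 mg/kg thus lay near the kidney arrays at 500 mg/kg.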

How the data were processed

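Total RNA of liver and kidney was measured on Affymetrix rat arrays with 3' probe sets. The deposited values are log2 expression summarised by RMA, per the submitters' processing notes, with version, chip definition and whether both organs were normalized together not given in the sources used here. RMA's quantile step hides a shift of most transcripts in 1 direction and its model compresses dim probe sets. The number of arrays limits precision. Arrays were grouped by their titles, and the series' design text states that arrays showing batch effects had been taken out before deposit.

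Of 31099 probe sets 57 controls were left out. Of the 31042 tested, 20826 have 1 symbol in the platform annotation, 436 several and 9780 none, and 20758 were matched by gene ID to current names (14217 genes). Each gene was represented by the brightest of its probe sets, by the mean over the 27 liver arrays. Of 41 named genes with other probe sets, 31 have all of them on the same side of 0. *Cyp2b1* is not analysed here.

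The 7 liver dose groups were fitted together in limma 3.58.1 (R 4.3.3, lmFit and eBayes), with 20 residual degrees of freedom, and all 44 arrays were fitted for the organ difference. Two-sided p-values were adjusted by Benjamini-Hochberg over all 31042 probe sets, with a threshold of 0.05, and every p in the text is limma's. The script was tested on simulated data. Named genes are those past the threshold, then the smallest p without overlap to make 12 each way, up to 3 per pathway list, 28 fixed genes, markers at an unadjusted p under 0.05, and 4 each way in the organ difference. *Xist* and members of lists outside this rule were chosen after their values were seen. The comparison, the 26 pathway and 11 marker lists and the fixed genes were chosen with earlier results of these data known, so counts over them are descriptions. Alternatives were array weights, an intensity trend with robust variance, only the probe sets brighter than the median, centring, a second quantile normalization, only the groups compared, no vehicle arrays, a replicate block, and each array left out.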

Additional observations from a re-analysis of the deposited data

Results flagged for a closer look

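Of 244 groups of 4 arrays (122 named genes at 2 doses), 10 had 1 array set far apart from the other 3, measured by its gap to the nearest of them over the whole range. Chance gives about 1 in 20, so 10 is fewer than that share. At 300 mg/kg, *Cars1* read 9.15 in replicate 2 (9.01 to 9.03 in the others), *Srebf1* 10.90 in replicate 2 (11.14 to 11.17), *Cyp2e1* 13.63 in replicate 2 (13.42 to 13.45) and *Cyp2c12* 12.13 in replicate 1 (11.75 to 11.78). At 500 mg/kg, replicate 2 was the low one for *Nfe2l2* at 9.62 (10.30 to 10.38), *Dhcr7* at 10.77 (11.29 to 11.34), *Hspa4l* at 5.52 (6.05 to 6.14) and *Hes6* at 10.49 (10.72 to 10.76). Replicate 4 at 500 mg/kg was high for *Ehhadh* at 11.81 (11.51 to 11.55) and low for *Pcna* at 8.73 (8.80 to 8.81). Replicate 2 thus held 4 of the 6 at 500 mg/kg and 3 of the 4 at 300 mg/kg.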

How the results depend on the processing

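Across 1944 alternative values of the difference between 300 and 500 mg/kg for the 122 named genes, 18 (of *Eci1* and *Acot2*) lost the threshold, 10 of 7 genes gained it and 7 of 3 genes near 0 changed sign. With 1 array left out, *Tm7sf2* (0.03) ran from -0.04 to 0.06, *Thrsp* (0.01) from -0.14 to 0.19 and *Ttpa* (0.03) from just under 0.00 to 0.08. The number called, 2, was 3 with array weights, 4 with only the probe sets brighter than the median, 16 with an intensity trend and robust variance, 2 after a second quantile normalization or without the vehicle arrays, 0 with each array centred on its median, 0 with only the groups compared, and 0 to 3 when each array was left out. *Eci1* passed in 8 of 16 alternatives (adjusted p 0.00534 to 0.151) and *Acot2* in 6 (0.00408 to 0.222). Same-numbered arrays at the 2 doses deviated together at r = -0.02 to 0.05, and differently numbered ones at -0.06 to 0.09. With 4 arrays a group this shows no pairing by number but cannot exclude it. A fit with the replicate block called 1 probe set at 300 against 500 mg/kg. For 300 mg/kg against vehicle the 38 calls became 60 with array weights, 139 with the brighter probe sets, 84 with the trend, 2 with only the groups compared, 60 with the replicate block, 16 after a second quantile normalization, and 0 to 22 with an array left out (0 without vehicle replicate 2, 3 without replicate 3 at 300 mg/kg). For 500 mg/kg against vehicle the 55 calls became 84, 104, 136 and 1 under the first 4 of these, 42 with the replicate block, and 9 to 84 with an array left out (84 without vehicle replicate 1, 9 without vehicle replicate 3). The organ difference had 2 calls with array weights (*Nupr1* and *Acot2*) and 0 to 1 with an array left out. List medians moved by less than the spread between arrays in 620 of 624 fits; the 4 others were PPARA targets at -0.11 without replicate 4 at 300 mg/kg, lymphocyte markers at 0.33 with the brighter probe sets, adipocyte markers at 0.00 without replicate 4 at 500 mg/kg and muscle markers at 0.09 without replicate 3 at 500 mg/kg. That spread is wide beside the medians: in at least 1 fit with an array left out, 31 of 37 list medians (rounded to 2 decimals) moved by more than 1.5 times and 8 changed sign, and 27 of the 122 named genes moved by more than 1.5 times. With only the groups compared, the spread is estimated from fewer arrays; for the other shifts the cause was not tested. No value over background was at hand, so dim probe sets could not be left out by detection.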
